A study of Monodelphis domestica and Mus musculus with 2 samples.

Results

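Rorb and 4 further genes used as markers of cortical layer 4, namely Whrn, Scnn1a, Rspo1 and Brinp3, were followed through the primary visual cortex (V1) of the gray short-tailed opossum and of the mouse. The 5 genes were chosen by symbol, without regard to case. All 5 were found among the 61317 features of the mouse table, and 4 among the 30613 features of the opossum table, in which no feature carries the symbol SCNN1A. The samples were 1 tissue section of a male opossum (Monodelphis domestica) of about 6 months and 1 of a male wild-type C57BL/6J mouse of about postnatal day 40, both cut at 10 µm from cortex and untreated. Each was profiled by Stereo-seq, in which the positions of captured polyadenylated RNA are read from a patterned chip, so that every unique molecular identifier (UMI, a stand-in for 1 captured RNA molecule) keeps its position. With 1 animal per species there is no replicate of a species, so no p-value was computed. The V1 regions are parts of 1 animal and came from more than 1 of the coronal slices that were embedded together in a block.

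Layer 4 is the main target of thalamic axons in sensory cortex, and its excitatory neurons pass that input to the other layers. Rorb encodes RORβ, a nuclear receptor and transcription factor that takes part in giving layer 4 neurons their identity and is the most widely used marker of that layer. Whrn encodes whirlin, a scaffold protein with PDZ domains known best from the stereocilia of hair cells. Scnn1a encodes the alpha subunit of the epithelial sodium channel, and a Cre line built on its promoter is used to reach layer 4 neurons in the mouse. Rspo1 encodes R-spondin 1, a secreted protein that strengthens Wnt signaling, and Brinp3 encodes a neural protein of the BRINP family, named for induction by bone morphogenetic protein and retinoic acid.

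The V1 regions held 4806 opossum cells in 3 regions and 9127 mouse cells in 4 regions that passed the authors' filter, with a median of 1326 UMIs per cell in the opossum and 1305 in the mouse. In each species the authors named the cells from their UMIs by nearest neighbors in a single-nucleus atlas, so the label of a cell is not independent of its genes, and a ratio between labels is a description. Subclass L4 of the mouse (1969 cells) and IT_B of the opossum (126 cells), which the study sets beside each other, are the layer 4 neurons here. The authors also used the presence of these subclasses to place V1. Class and subclass were labelled separately, and 90 of the mouse L4 cells were not labelled glutamatergic. Other glutamatergic cells, against which IT_B and L4 are set below, were taken by class. Of these, 1041 of 3626 opossum cells and 923 of 4366 mouse cells had no subclass or one that is not glutamatergic, and leaving them out kept each ratio of the genes inside its interval. The classes were not cleanly separated by their transcripts. Slc17a7, the vesicular glutamate transporter of cortical excitatory neurons, had a level of 10.8 UMIs per 10000 in nonneuronal and 10.8 in other glutamatergic cells of the mouse, so the level in nonneuronal cells is given as a background. The opossum table has no feature of this symbol. Levels are UMIs of a gene per 10000 UMIs, with exact Poisson intervals at 95% that cover counting error only.

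Rorb stood highest in the layer 4 subclass of both species. In the opossum, 570 Rorb UMIs were found in 296 V1 cells, and IT_B held 27.9% of them against 3.06% of all UMIs. The level in IT_B was 7.50 (95% interval 6.38 to 8.76), with 9.60, 7.18 and 5.38 in the 3 regions. In other glutamatergic cells it was 0.570 (0.507 to 0.638), with 0.487, 0.603 and 0.671 in the same regions, so the regions did not overlap between the groups. Nonneuronal cells had 0.851 (0.667 to 1.07). The ratio over other glutamatergic cells was 13.2 (10.8 to 16.0). It was 19.7 in region 1, 11.9 in region 2 and 8.02 in region 3. Of the 8846 opossum genes with at least 100 UMIs in V1, Rorb had the highest ratio, and 6.48% of these genes were at least 2-fold higher in IT_B.

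In the mouse, 1260 Rorb UMIs were found in 834 V1 cells, and L4 held 54.2% of them against 20% of all UMIs. The level in L4 was 2.73 (2.53 to 2.94), with 2.89, 3.00, 2.43 and 2.60 in the 4 regions. It was 0.497 (0.444 to 0.555) in other glutamatergic cells, whose regions lay between 0.463 and 0.552 and did not overlap with L4, and 0.824 (0.712 to 0.949) in nonneuronal cells. The ratio over other glutamatergic cells was 5.48 (4.79 to 6.29), between 4.40 and 6.49 over the regions, and was the highest of 11402 mouse genes with at least 100 UMIs. In the mouse, 0.631% of these genes were at least 2-fold higher in L4. The ratios and levels of the species are not set against each other, because the opossum reads were counted on a custom genome with extended gene ends and the mouse reads on another annotation.

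**Figure D1:**
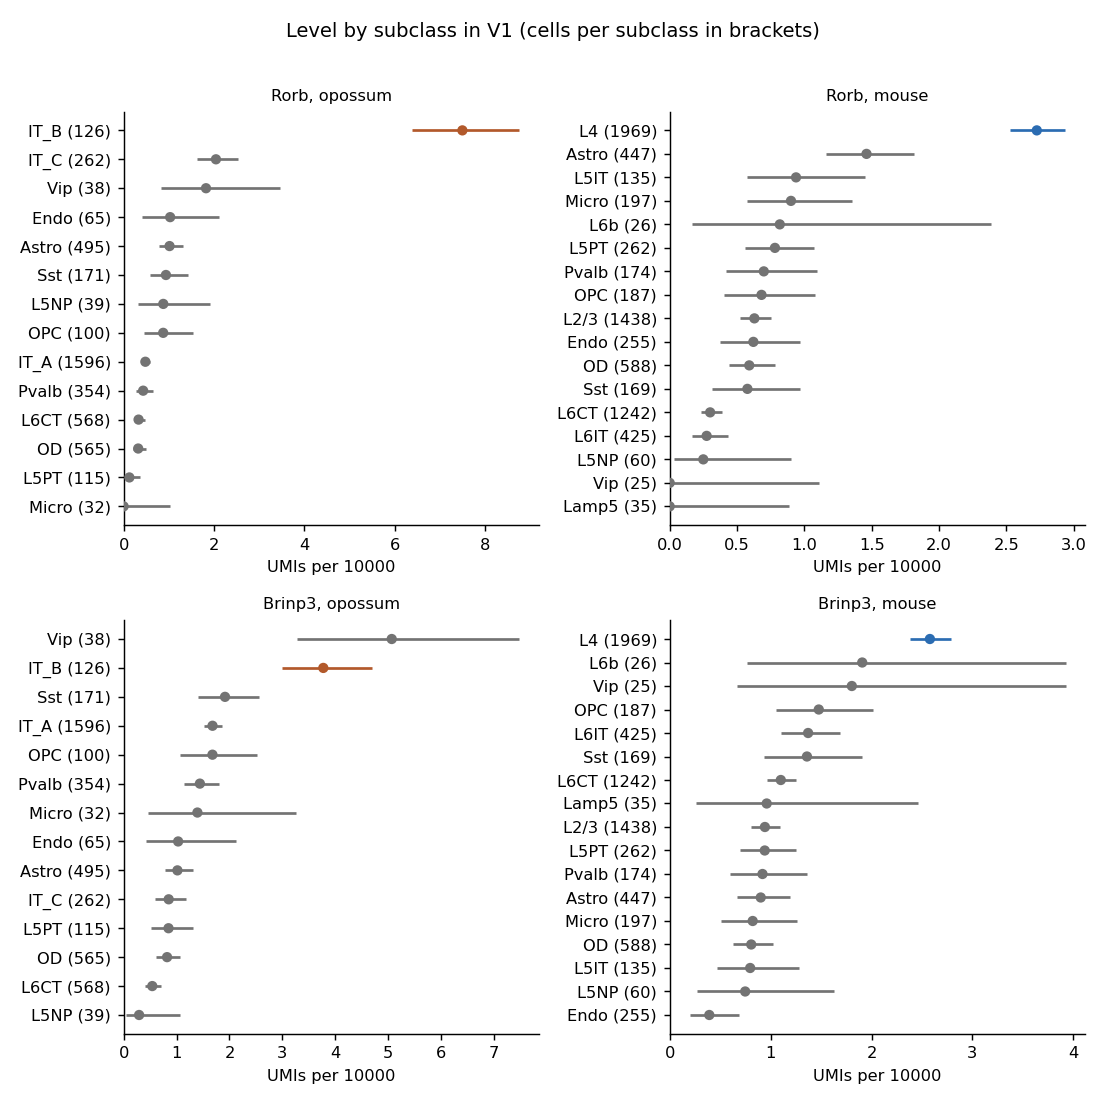
Level of Rorb (top) and Brinp3 (bottom) in UMIs per 10000 for each V1 subclass with at least 25 cells, opossum left and mouse right. Points are pooled levels, lines are exact 95% Poisson intervals, and IT_B and L4 are colored. Rorb was highest in IT_B at 7.50 and in L4 at 2.73, and Brinp3 stood at 3.77 in IT_B and 2.58 in L4, while the opossum Vip value of Brinp3 rests on 1 cell with 21 UMIs.

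Rorb was also found outside the layer 4 subclass. In the opossum, IT_C came second with 2.04 (1.63 to 2.53) in 262 cells, and its regions stood at 1.66, 1.87 and 3.13. To set label apart from depth, the UMIs of a subclass were divided by the number that the other cells at the same depth would give, in 20 depth bins. This ratio of observed to depth-matched UMIs was 7.35 (6.25 to 8.58) in IT_B and 3.21 (2.56 to 3.98) in IT_C, but 0.476 in IT_A, the upper intratelencephalic subclass. Among Vip, Endo, Astro, Sst, L5NP and OPC cells, with levels between 0.876 and 1.82, all intervals overlapped. In Vip, the highest of them, 6 of 9 UMIs came from 1 cell, and without it the level was 0.624. In Sst, 8 of 22 UMIs came from 1 cell, and without it the level was 0.603. IT_A, Pvalb, L6CT and OD cells followed with 0.481, 0.432, 0.331 and 0.322. L5PT cells, the pyramidal tract neurons of layer 5, had the lowest level above 0, with 0.127 (0.0262 to 0.372) on 3 UMIs.

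In the mouse, astrocytes came second with 1.46 (1.16 to 1.82), and their 4 regions lay between 1.37 and 1.64, below every L4 region. Their observed over depth-matched ratio was 1.42 (1.13 to 1.77), against 2.81 (2.61 to 3.03) in L4. Opossum astrocytes had a level of 1.02 and a ratio of 1.05 (0.802 to 1.35), an interval that holds 1. L5IT, Micro, L6b, L5PT, Pvalb, OPC, L2/3, Endo, OD and Sst cells of the mouse, between 0.938 and 0.577, did not differ from their neighbors in this order beyond the intervals. L6CT and L6IT neurons of layer 6 stood lower, at 0.300 (0.229 to 0.386) and 0.274 (0.163 to 0.433). Lamp5 and Vip cells had no Rorb UMI, in 35 and 25 cells.

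The share of cells with a Rorb UMI was 41.3% (exact Clopper-Pearson interval 32.6 to 50.4) of IT_B cells against 6.50% (4.76 to 8.63) of opossum nonneuronal cells, at median depths of 1603 and 1155 UMIs. It was 20.2% (18.4 to 22) of mouse L4 cells against 7.27% (6.11 to 8.56) of nonneuronal cells, at 1205 and 1253 UMIs. After every cell was thinned to 300 UMIs, which left out 1 IT_B cell and 27 L4 cells, the shares were 20.8% of IT_B and 7.52% of L4. Single cells reached 14 Rorb UMIs in IT_B and 10 in L4. Of the cells with at least 3 Rorb UMIs, 39.7% of 63 in the opossum were IT_B and 72.2% of 97 in the mouse were L4. Among all V1 cells, IT_B made up 2.62% in the opossum and L4 21.6% in the mouse. Most opossum cells rich in Rorb carried another label, although IT_B was far more frequent among them than among all cells.

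**Figure D2:**
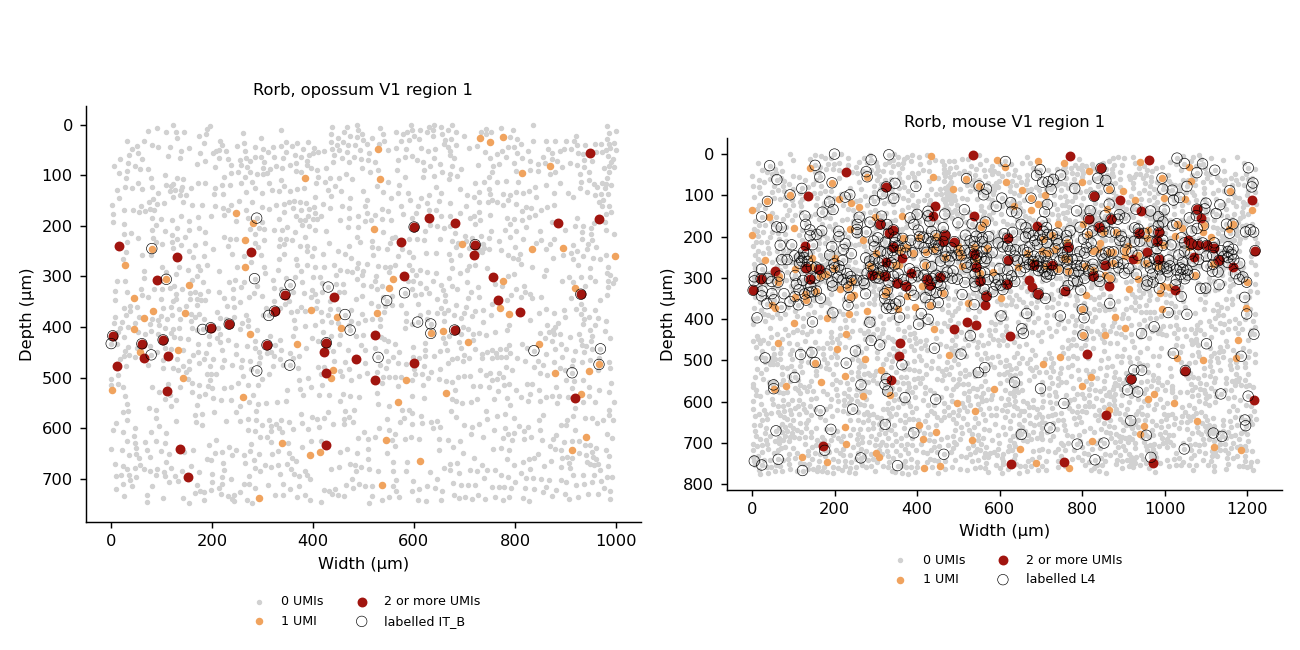
Cells of V1 region 1 in the opossum (left) and the mouse (right), by width and depth in µm, colored by the number of Rorb UMIs in the cell. Circles mark cells labelled IT_B or L4. Over all regions, the middle 50% of cells with a Rorb UMI lay from 294 to 513 µm in opossum V1 and from 201 to 401 µm in mouse V1, and 52 of 296 such opossum cells and 397 of 834 such mouse cells were IT_B or L4.

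Depth gives a view of the genes that does not sort cells by their own label. The labels still entered it, because the axis of each region was set by where IT_A or L2/3 and L6CT cells lay. Relative depth ran from 0 at the top to 1 at the bottom of each V1 region, and was scaled to the tallest region, 773 µm tall in opossum V1 and 774 µm in mouse V1. Among 10 equal bins, Rorb was highest in bin 5 of the opossum, from 309 to 387 µm, with 1.86 UMIs per 10000, and in bin 4 of the mouse, from 232 to 310 µm, with 2.49. The lowest bins had 0.165 in opossum V1 and 0.249 in mouse V1. The peak lay in bin 6, 5 and 5 in the 3 opossum regions and in bin 4, 4, 3 and 4 in the 4 mouse regions. The mean relative depth of Rorb was 0.499 against 0.493 for all cells of the opossum, and 0.369 against 0.487 in the mouse, where every region was shallower than all cells with values between 0.347 and 0.398. A mean close to that of all cells therefore stood beside a clear peak in the opossum.

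**Figure D3:**
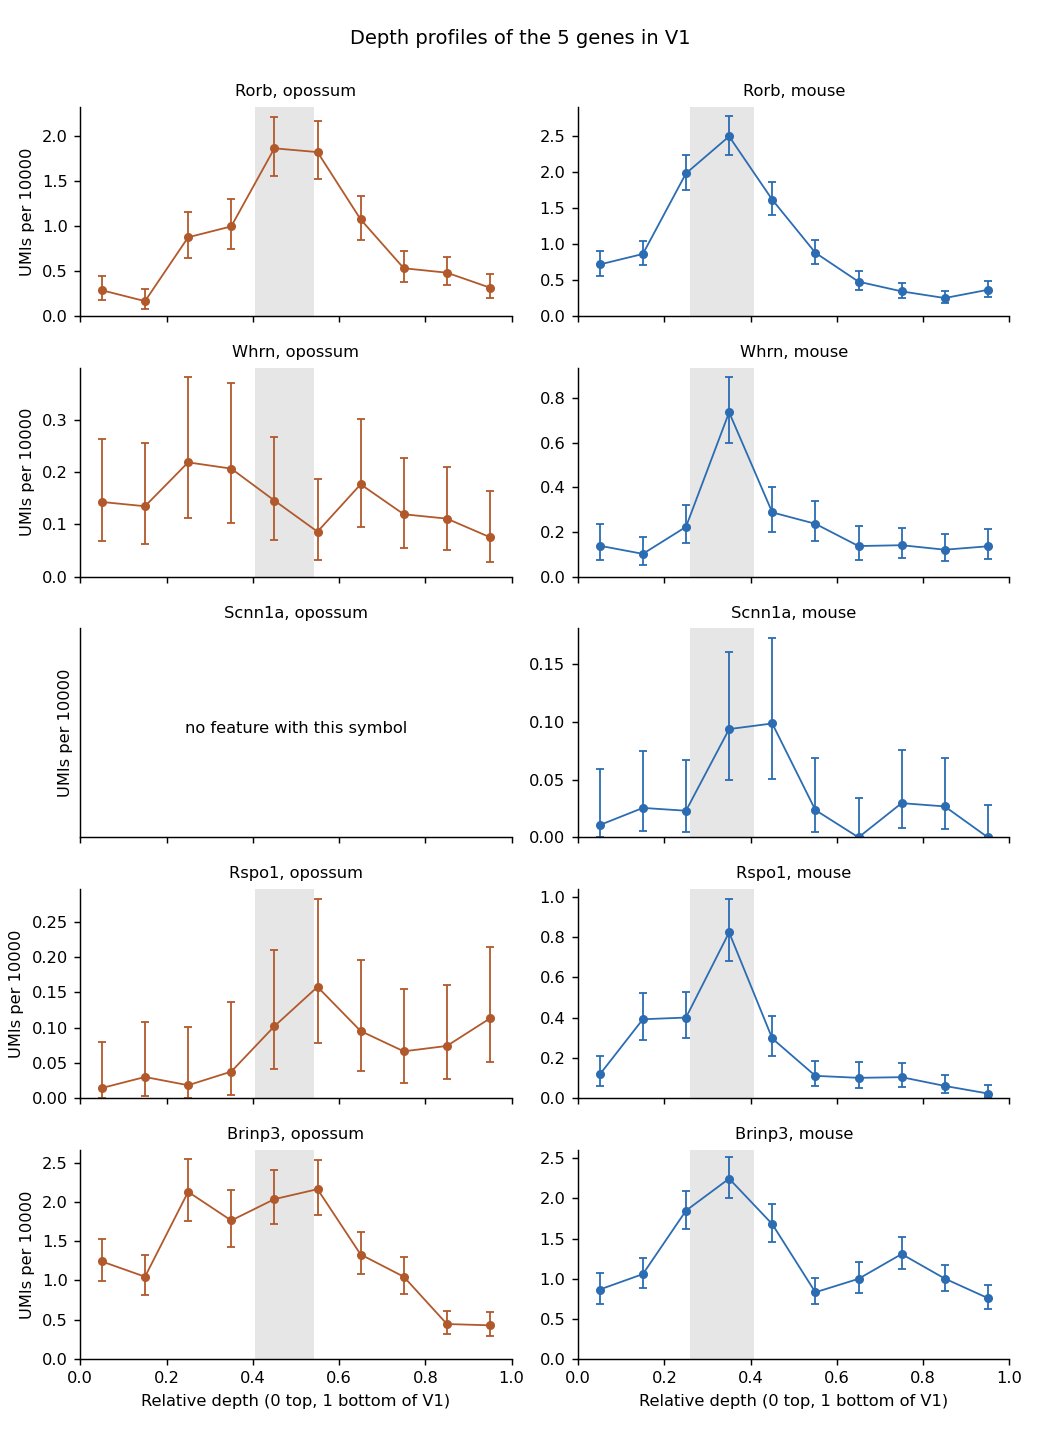
Level of each gene in UMIs per 10000 over 10 equal bins of relative depth, opossum left and mouse right, with exact 95% Poisson intervals. Gray marks the middle 50% of IT_B or L4 depths. In the mouse, Rorb, Whrn, Rspo1 and Brinp3 peaked in bin 4 and Scnn1a in bin 5, while in the opossum Rorb peaked in bin 5 and Whrn had no peak in the gray band.

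A layer 4 band was set as the interquartile range of depth of the layer 4 subclass. It ran from 313 to 420 µm with 793 opossum cells and from 200 to 316 µm with 1752 mouse cells. Over all cells, the level of Rorb in the band was 2.96 times (2.47 to 3.53) that in the rest of opossum V1 and 3.47 times (3.10 to 3.89) that in the rest of mouse V1. It was above 2 in all regions, with 3.17, 3.21 and 2.11 in the opossum and 2.88 to 4.38 in the mouse. In the same comparison, 0.995% of opossum genes and 0.64% of mouse genes were at least 2-fold higher. Of the members with at least 100 UMIs, 1 of 2 passed this fold in the opossum band (Rorb) and 4 of 4 in the mouse band (Rorb, Whrn, Rspo1 and Brinp3). For the comparison of labels the counts were 2 of 2 in the opossum (Rorb and Brinp3) and the same 4 of 4 in the mouse. Opossum Whrn and Rspo1 and mouse Scnn1a were under the minimum of 100 UMIs, and band and labels are not independent of each other.

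Rorb also followed depth within L4 cells, and less clearly within IT_B cells. In IT_B cells the level was 8.82 inside the band, 6.86 above it and 5.92 below it, with intervals that overlapped. The ratio of inside to outside was 1.39 (1.01 to 1.93), close to 1 at its lower end. In L4 cells the level was 3.42, 2.47 and 1.76, with a ratio of 1.65 (1.41 to 1.93). Cells of other labels were also higher in the band, by 2.22 times (1.66 to 2.94) in other glutamatergic cells of the opossum and 2.24 (1.61 to 3.05) in those of the mouse, and 2.15 (1.47 to 3.08) in mouse nonneuronal cells. In opossum nonneuronal cells the ratio of 1.65 (0.911 to 2.85) had an interval that holds 1. The part of mixed labels or of RNA from neighboring cells in these values was not tested. Compared inside the band alone, Rorb was 7.90 times (5.66 to 11.1) higher in IT_B than in other glutamatergic cells and 6.96 times (4.16 to 12.3) higher than in nonneuronal cells. In L4 the values were 3.36 (2.49 to 4.63) and 2.16 (1.54 to 3.09).

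**Figure D4:**
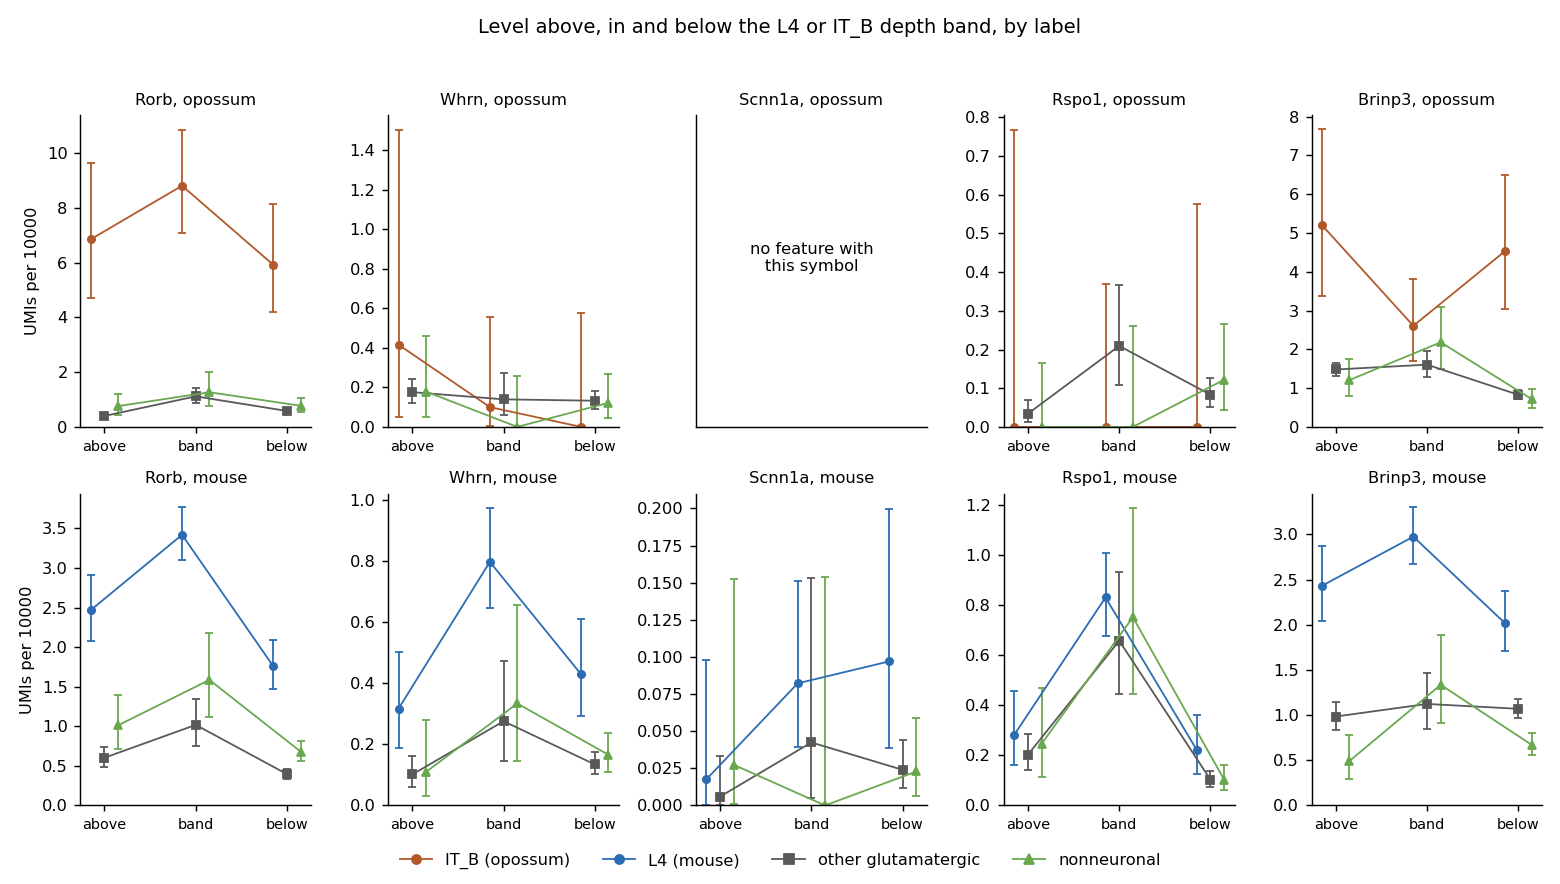
Level of each gene above, in and below the depth band of IT_B (opossum, top) or L4 (mouse, bottom), for IT_B or L4 cells, other glutamatergic cells and nonneuronal cells, in UMIs per 10000 with exact 95% Poisson intervals. Rorb in IT_B and L4 lay above the other labels at each depth, whereas Rspo1 in the mouse band was 0.830 in L4, 0.657 in other glutamatergic cells and 0.751 in nonneuronal cells.

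Whrn, the whirlin gene, was higher in L4 of the mouse, while opossum IT_B held too few UMIs to place it. The mouse level was 0.583 (0.492 to 0.685) in L4, with 0.543, 0.745, 0.524 and 0.587 in the 4 regions, against 0.136 (0.109 to 0.168) in other glutamatergic cells, with regions between 0.112 and 0.192. The groups did not overlap, and the ratio of 4.28 (3.26 to 5.65) ranked 4 of the 11402 genes. Nonneuronal cells had 0.174. In the opossum, the level in IT_B was 0.141 (0.0292 to 0.413) on 3 UMIs, with 1, 2 and 0 UMIs in the regions, against 0.150 in other glutamatergic and 0.117 in nonneuronal cells. The ratio of 0.943 had an interval of 0.190 to 2.86, stood at 0.907, 2.18 and 0 in the regions, and was 3.54 over cells labelled in the first round.

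By depth, mouse Whrn had 0.737 UMIs per 10000 in bin 4 and at most 0.288 in any other bin. All 4 regions peaked in bin 4. The band ratio was 3.47 (2.73 to 4.41), with 3.25, 4.12, 3.00 and 3.81 over the regions. Within L4 cells alone, Whrn was 2.10 times (1.47 to 3.02) higher inside the band than outside it. The 95 opossum UMIs were spread over the depth of V1, with levels between 0.0754 and 0.219 in the 10 bins, and the band ratio was 0.730 (0.338 to 1.41), with regions at 0.394, 0.494 and 1.33. Of the partners of whirlin in stereocilia and Usher complexes, Eps8, an actin regulator, and Adgrv1, an adhesion receptor, were at least 2-fold higher in IT_B, with ratios of 3.31 (1.65 to 6.07) and 2.19 (1.38 to 3.33), and Cask stood at 1.70, against the 6.48% of all genes past this fold. In mouse L4, Pdzd7, Eps8 and Cask stood at 0.687, 0.584 and 1.37, and Adgrv1, under the minimum with 36 UMIs, at 1.55 (0.557 to 4.04).

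Scnn1a was rare. Only 43 UMIs in 34 mouse V1 cells carried it, of which 18 UMIs were in L4, a level of 0.0718 (0.0426 to 0.114). The regions held 3, 6, 9 and 0 of these UMIs, so region 4 had none in 492 L4 cells. Other glutamatergic cells had 0.0206 and nonneuronal cells 0.0212. The ratio over other glutamatergic cells was 3.49 (1.62 to 7.75), and it was 1.88 to 9.07 when each region was left out in turn. L5NP cells, a near-projecting subclass of layer 5, had a higher level of 0.374 on 3 UMIs in 60 cells, with an interval of 0.0771 to 1.09 that overlapped with that of L4. By depth, 0.0939 and 0.0988 in bins 4 and 5 were the highest values, and the band ratio was 2.18 (1.04 to 4.30). The other subunits of the channel, Scnn1b and Scnn1g, had 3 and 2 UMIs in mouse V1 and 6 and 5 in opossum V1, too few for a level by subclass.

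Rspo1, the secreted R-spondin, was higher in the layer 4 band than in the rest of V1 in the mouse, and less clearly in the opossum. Its mean depth was shallower than that of all cells in the mouse and deeper in the opossum. In the mouse, 310 UMIs gave L4 a level of 0.531 (0.444 to 0.629), with 0.427, 0.465, 0.777 and 0.466 in the regions, against 0.171 (0.140 to 0.206) in other glutamatergic cells, with regions between 0.113 and 0.264, and 0.191 in nonneuronal cells. The ratio was 3.10 (2.39 to 4.04) and ranked 17. In the opossum, 51 UMIs were found in 34 cells and none in IT_B, which held 212055 UMIs, so that a count of 0 allows a level of up to 0.141 by 3 counts and 0.174 by the exact interval. Other glutamatergic cells of the opossum had 0.0779 (0.0559 to 0.106) and nonneuronal cells 0.0700, so an absence from IT_B was not detectable at this depth, and the interval of the ratio ran from 0 to 2.34.

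Depth separated mouse Rspo1 more strongly than label did. Its level in bin 4 was 0.824, against at most 0.400 in any other bin, and the band ratio of 5.29 (4.20 to 6.65) was the highest of the 11402 genes, above 4 in each region with 4.09, 5.0, 6.94 and 6.04. Inside the band, L4 cells had 0.830 and other glutamatergic cells 0.657, a ratio of 1.26 (0.837 to 1.95), and the ratio over nonneuronal cells was 1.11 (0.665 to 1.94). Both intervals hold 1. Within a label, the ratio of inside to outside was 3.35 (2.23 to 5.15) in L4, 4.99 (3.18 to 7.66) in other glutamatergic and 5.88 (3.05 to 11.1) in nonneuronal cells. The observed over depth-matched ratio of L4 was 1.15 (0.964 to 1.36) for Rspo1, against 2.81 for Rorb, 2.72 for Whrn and 2.39 for Brinp3. The part of mixed labels or of RNA from neighboring cells was not tested here either.

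In the opossum, Rspo1 was highest in bin 6, from 387 to 464 µm, with 0.158, and lowest at the top with 0.0143. The regions did not share this peak, which lay in bin 10, 6 and 2 on 20, 25 and 6 UMIs per region. The mean relative depth of Rspo1 was 0.634 against 0.493 for all cells, and all 3 regions were deeper than all cells, with 0.671, 0.594 and 0.700. In the mouse it was 0.348 against 0.487, and all 4 regions were shallower, between 0.295 and 0.392. The opossum band ratio was 2.12 (1.04 to 4.07) on 13 UMIs in the band, with 0 UMIs in the band of region 3, and it was 1.20 without region 2. By cells, 20.6% of the 34 opossum cells with an Rspo1 UMI lay in the band, against 16.5% of all V1 cells. Of 15 Rspo1 UMIs in IT_A cells, 10 lay in the band. Among the other R-spondins, Rspo2, with 345 UMIs in opossum V1, had a ratio of 2.33 (1.45 to 3.58) in IT_B, but 0.374 (0.202 to 0.647) in mouse L4. No R-spondin receptor or ligase with at least 100 UMIs (Lgr4, Znrf3 and Lrp6 in the mouse, and these and Lgr6 in the opossum) was 2-fold higher in the layer 4 subclass.

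**Figure D5:**
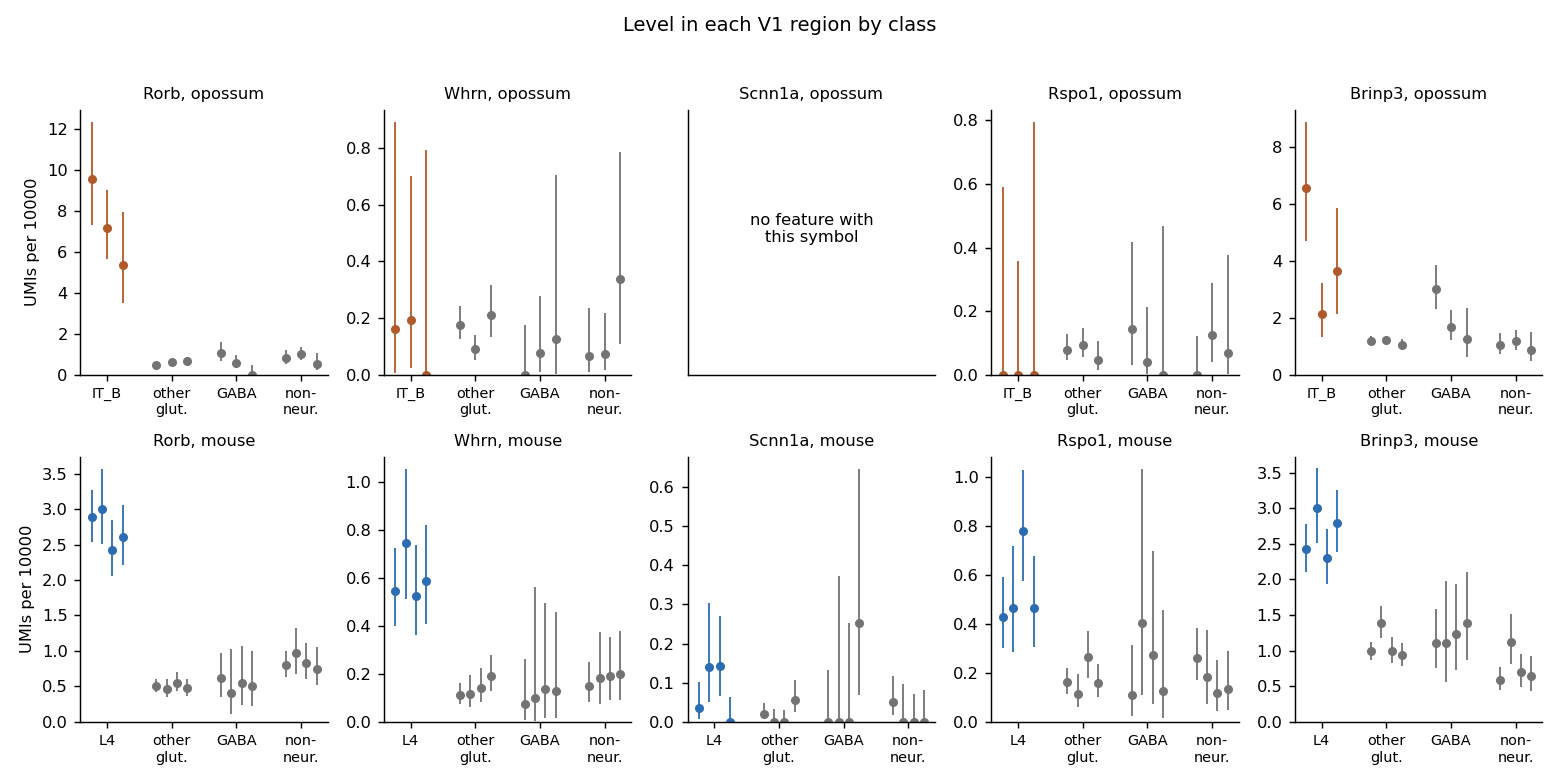
Level of each gene in UMIs per 10000 in each V1 region, for IT_B or L4 (colored) and for other glutamatergic, GABAergic and nonneuronal cells (gray), opossum top and mouse bottom. Points are regions in the order 1 to 3 or 1 to 4, and lines are exact 95% Poisson intervals. Rorb in IT_B and L4 lay above every gray point in all 7 regions, and Brinp3 in IT_B varied from 2.13 to 6.56.

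Brinp3 was found in 505 opossum and 973 mouse V1 cells and was higher in the layer 4 subclass of both. The level was 3.77 (2.99 to 4.70) in IT_B against 1.17 in other glutamatergic and 1.08 in nonneuronal cells, a ratio over the former of 3.23 (2.53 to 4.09) that ranked 81 of 8846. The regions of IT_B stood at 6.56, 2.13 and 3.66, those of other glutamatergic cells between 1.05 and 1.20, and the ratio was 2.27 without region 1 and 4.65 without region 2. In mouse L4 the level was 2.58 (2.38 to 2.78) against 1.05 in other glutamatergic and 0.709 in nonneuronal cells, and the regions, from 2.30 to 3.00, did not overlap with those of other glutamatergic cells, from 0.938 to 1.39. The ratio was 2.45 (2.20 to 2.74) and ranked 31. Opossum Vip cells had 5.07, but 21 of their 25 UMIs came from 1 cell, and without it the level was 0.847. GABAergic cells as a class had 2.13 (1.76 to 2.55) in the opossum, with that cell, and 1.20 (0.954 to 1.49) in the mouse.

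By depth, opossum Brinp3 lay between 1.76 and 2.16 in bins 3 to 6, with intervals that overlapped, and had 0.427 at the bottom. Mouse Brinp3 peaked at 2.25 in bin 4 and had a second, lower peak of 1.31 in bin 8. Mouse L6IT and L6CT neurons had 1.37 and 1.10, against 0.943 in L2/3. The band ratio was 1.70 (1.44 to 2.00) in the opossum and 2.03 (1.82 to 2.27) in the mouse. Within IT_B cells the Brinp3 level was 2.61 inside the band, 5.20 above it and 4.52 below it, a ratio of 0.541 (0.325 to 0.880). These 80 UMIs came from 31 cells, of which 6 held 5 or more, so a few cells could set this ratio. Within L4 cells the ratio was 1.35 (1.15 to 1.58). Inside the band alone, Brinp3 in IT_B was 1.62 times (1.01 to 2.53) that in other glutamatergic cells. Over nonneuronal cells the ratio was 1.19 (0.681 to 2.08), an interval that holds 1. GABAergic cells in the opossum band had 3.30 (2.41 to 4.42), which overlapped with IT_B. In L4 the 2 in-band ratios were 2.65 (1.98 to 3.60) and 2.23 (1.55 to 3.31). The observed over depth-matched ratio of Brinp3 in IT_B was 2.01 (1.60 to 2.50). Of the related genes, Brinp1 and Brinp2 had ratios of 1.33 (1.25 to 1.40) and 1.11 in the mouse, under 2-fold, and Brinp2 had 0.341 (0.0924 to 0.883) in opossum IT_B.

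The genes also differed among the 3 L4 types that the authors named in the mouse. Type and subclass did not cover the same set of cells. Some cells of subclass L4 carried none of the 3 types, and some cells of these types lay outside subclass L4. L4_A, with 452 cells, had a Rorb level of 4.59 (4.07 to 5.16), against 2.19 in L4_B (1099 cells) and 1.99 in L4_C (108 cells). Whrn was 0.902 in L4_A and 0.443 in L4_B, and Rspo1 was 0.918 and 0.565. Brinp3 had the reverse order, with 2.39 (2.02 to 2.82) in L4_A and 2.96 (2.67 to 3.27) in L4_B, intervals that overlapped. The median depths of L4_A and L4_B were alike, at 256 and 252 µm, while L4_C lay at 329 µm. The authors labelled cells in 3 rounds, each asking for less agreement among atlas neighbors than the one before. Cells were thus sorted into rounds by their own UMIs, and a level by round is a description. Rorb in IT_B was 9.94, 7.63 and 3.90 in rounds 1, 2 and 3, and 4.17, 2.08 and 1.31 in L4, so the level was lower in each later round.

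Cells seldom held more than 1 of the genes. At least 2 of the 5 were found in 8.18% of L4 cells, 1.35% of other glutamatergic and 1.22% of nonneuronal mouse cells. At least 2 of the 4 were found in 11.1% of IT_B, 0.910% of other glutamatergic and 1.33% of nonneuronal opossum cells. Outside the V1 regions, in the rest of each section, Rorb had 0.679 UMIs per 10000 in the opossum and 0.468 in the mouse, so V1 was 1.21 times (1.11 to 1.32) and 2.15 times (2.02 to 2.29) as high. V1 over the rest was 1.59 for Whrn, 1.64 for Scnn1a, 2.40 for Rspo1 and 1.74 for Brinp3 in the mouse, and 0.704, 1.32 and 1.27 for Whrn, Rspo1 and Brinp3 in the opossum. The rest holds other areas and structures, and V1 was placed partly by L4 and IT_B.

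Among retinoid-related orphan receptors, Rora, the receptor closest to Rorb, was 2.21 times (1.92 to 2.54) higher in IT_B and 2.31 times (2.14 to 2.50) higher in L4 than in other glutamatergic cells. Markers of other layers gave the frame. Over other glutamatergic cells, the layer 6 markers Foxp2, Tle4, Syt6 and Rprm had ratios of 0.115, 0.469, 0.462 and 0.364 in L4. In IT_B they stood at 0.369, 1.07, 0.151 and 0.327. Of the layer 5 markers, Fezf2, Etv1 and Deptor stood at 0.0746, 0.135 and 0.534 in IT_B. In L4, Fezf2, Etv1, Parm1 and Deptor stood at 0.789, 0.821, 0.843 and 1.28. The share of all genes with ratios this low was not computed, so no count of lower markers is given. Of the upper-layer markers Cux1, Cux2, Otof and Calb1, only Calb1 in the opossum passed 2-fold, with 2.03 (1.64 to 2.48).

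The genes whose profile over 20 depth bins was most like that of Rorb were, in the mouse, Cacna2d3 (Pearson r 0.960), Kcnh5, Gpr158, Hs6st3, Fam19a2, Prr16, Rgs4, R3hdm1, Boc and Tmem145 (0.882), among 7507 genes with at least 300 UMIs. In the opossum they were TAFA2 (0.911), PIK3R1, ATXN1, CRTAC1, CHST11, a feature named only ENSMODG00000000312, SLC24A3, RXFP1, FEZ1 and SDC4 (0.823), among 5110 genes. The median r over all genes was -0.02 in both species, and the bins share the cells of 1 section. Fam19a2 is the earlier symbol of Tafa2, which encodes a secreted chemokine-like protein, so the same gene stood in both lists. It was 10.8 times (9.65 to 12.2) higher in IT_B and 3.61 times (3.22 to 4.04) higher in L4 than in other glutamatergic cells. Of the members, Rspo1 and Brinp3 ranked 18 and 32 in the mouse with r of 0.858 and 0.842, and Brinp3 ranked 39 in the opossum with 0.736.

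In the mouse annotation of GRCm39, Rorb lies on chromosome 19 from 18907969 to 19088585 on the minus strand, Whrn on chromosome 4 from 63333143 to 63414333 on the minus strand, and Scnn1a on chromosome 6 from 125297622 to 125321906 on the plus strand. Rspo1 lies on chromosome 4 from 124879876 to 124902892 and Brinp3 on chromosome 1 from 146370498 to 146780462, both on the plus strand. All 5 are protein-coding genes, and no gene overlaps Rorb or Whrn. Brinp3 overlaps Gm29514, which had 186 V1 UMIs, on the opposite strand.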

How the data were processed

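Stereo-seq UMIs were measured in 1 section of each of 2 samples, an opossum and a mouse cortex block. The authors aligned the tissue by hand in the Stereo-seq Analysis Workflow, mapped reads to a custom opossum genome with extended 3′ ends or to GRCm39, and deposited UMI counts per gene and segmented cell without normalization. V1 regions, filter (at least 50 genes and 100 UMIs), classes and subclasses are the deposited labels.

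From these counts, levels were UMIs per 10000 with exact Poisson intervals, ratios had exact binomial intervals and shares Clopper-Pearson intervals, all at 95% and covering counting error only. UMIs of 1 cell are not independent, so the intervals are too narrow for differences between cells. Depth was taken along the axis of the smallest rectangle around a region, turned so that IT_A or L2/3 lay shallow and L6CT deep. Mean relative depth weighted each cell by its UMIs per 10000. Subclasses under 25 cells were left out. The tools were matplotlib 3.10.9, pandas 2.3.3, scipy 1.17.1 and numpy 2.4.6 under Python 3.11.15. The computations were tested on simulated counts drawn independently for each cell, so the test did not cover UMIs that cluster within cells. Totals were 6933475 UMIs in opossum V1 and 12522687 in mouse V1. No cell barcode was shared by the sections as written, while 43 were shared once the prefix was left out.

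The named genes are the 5 members, the genes of related families and marker lists, and the 10 genes per species most like Rorb by depth. A single gene of these lists is not reported here. The members and lists were chosen with earlier results of these data known. Alternatives are given below. Of 61317 mouse features, 61249 were matched to GENCODE.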

Additional observations from a re-analysis of the deposited data

Results flagged for a closer look

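Rspo1 lay on opposite sides in every V1 region of the sections. Its mean relative depth minus that of all cells was 0.141 in the opossum, where all 3 regions were deeper than all cells, and -0.140 in the mouse, where all 4 regions were shallower. Its level in the layer 4 subclass over that in other glutamatergic cells was 0 in the opossum, with no UMI in IT_B in any region and an interval up to 2.34, and 3.10 in the mouse, with each region above 1. The differences were not tested, since each species has 1 animal, and the opossum values rest on 51 UMIs, of which region 3 held 6. The ratio of the layer 4 band to the rest of V1 was 5.29 in the mouse and 2.12 (1.04 to 4.07) in the opossum. The opossum ratio rested on 13 UMIs in the band, with none in region 3. It was 1.20 at its lowest when each region was left out in turn.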

How the results depend on the processing

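Of 284 alternative values, 230 stayed within the interval or spread of the main value (within 1.5 times for counts and shares of genes) and 54 moved beyond it. None turned the direction of a ratio whose interval leaves out 1, while opossum Whrn, whose interval holds 1, passed from 0.943 to 3.54 with first-round labels. The first round held 30 IT_B cells. With cells labelled in that round only, the opossum Rorb level was 9.94 and its ratio 29.6, and the Brinp3 level 6.17 and ratio 6.69. In the mouse the Rorb level was then 4.17 and its ratio 8.63, Whrn 0.791 and 6.32, Rspo1 0.771 and 5.95, and Brinp3 3.76 and 2.95. Against cells that are glutamatergic by both class and subclass, chosen after seeing the data, the ratios of Rorb were 12.8 and 5.60. Against all other V1 cells, the mouse Rorb ratio was 4.73. Thinned to 300 UMIs per cell, the ratio of Whrn was 0 in the opossum and 3.08 in the mouse. In the thinned levels, an alternative chosen after seeing the data, Whrn in IT_B was 0 and Scnn1a in L4 0.137. The mean relative depth in thinned cells was 0.727 for opossum Rspo1 and 0.481 for mouse Brinp3. With raw UMIs the mouse depths of Rorb and Brinp3 were 0.396 and 0.479, and over glutamatergic cells 0.340 and 0.420. With a band from the 10th to the 90th percentile, the Scnn1a band ratio was 4.76.

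Leaving out each region in turn, the opossum Rorb ratio ran from 10.6 to 14.9, the Brinp3 level in IT_B from 2.61 to 5.32, its ratio from 2.27 to 4.65 and its band ratio from 1.40 to 2.01, each lowest without region 1 for Brinp3. The mouse Scnn1a ratio ran from 1.88 without region 3 to 9.07 without region 4. With 1.5-fold as the limit, 16.0% of opossum genes were called by label and 5.26% by band, and of mouse genes 3.53% and 3.89%. With at least 300 UMIs these were 4.31%, 0.489%, 0.413% and 0.426%. Of the 10 genes most like Rorb, 6 were shared with 10 bins in each species, and 5 with Spearman's coefficient in the mouse. No paired analysis was possible because each group is 1 sample and no test was made. Genes under 100 UMIs (opossum Whrn and Rspo1, mouse Scnn1a) are limited by depth.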
